A study of Rattus norvegicus with 12 samples.

Results

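The growth factor receptor tyrosine kinases described here are 10 genes, *Fgfr1*, *Fgfr2*, *Fgfr3*, *Igf1r*, *Insr*, *Erbb3*, *Egfr*, *Met*, *Ntrk2* and *Ddr1*, taken by symbol from a table of 30562 genes. Each symbol had 1 row. RNA-seq counts came from primary oligodendrocyte precursor cells (OPCs) of wild-type Sprague-Dawley rats, which were isolated by shaking from mixed glial cultures of postnatal day 1 or 2 cortex and plated in Neurobasal medium with B27, FGF-2 and PDGF-AA. Mild-hypo-OPCs (6 libraries) were held at an FiO2 of 5%, for 6 hours by the labels and for 6 days by the study's methods, and standard OPCs (6 libraries) were held in room air. All 12 libraries carried the same culture factors, and FGF-2 and the insulin in B27 are themselves ligands of members of the list. The labels do not say that the libraries of a group came from separate cultures, so p-values measure only the spread between these libraries, which may be technical. All 6 deposited libraries of a group are used here, although the published legend for this comparison counts n = 3 biological replicates per group and does not name them. The mild-hypo-OPC libraries totalled 4111669 to 9022324 counts each, and the standard OPC libraries 1356079 to 2797513. Depth therefore differed between the groups without overlap and cannot be told apart from the condition.

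Receptor tyrosine kinases span the membrane, bind a ligand outside the cell and phosphorylate tyrosines on themselves and on docking proteins, which feed the RAS-ERK and PI3K-AKT cascades. In the oligodendrocyte lineage, FGF receptors are known for keeping precursors dividing together with PDGF signaling and, in mature cells, for controlling myelin thickness. The IGF-1 receptor is known for survival and differentiation of the lineage, and ErbB3, which lacks strong kinase activity and pairs with other ErbB receptors, carries neuregulin signals.

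Of the 10 receptors, 8 had CPM (counts scaled to a library of 1e6) above 10 in at least 1 library and were tested, and *Egfr* and *Met* did not reach that level. *Ddr1*, *Fgfr1* and *Fgfr2* were higher in mild-hypo-OPCs, each by about 0.3 to 0.4 on the log2 scale. The other 5 tested receptors did not pass the threshold, and 0 receptors were lower. That is 3 of 8 called higher, against 626 of 8938 genes tested (7.00%) called higher and 1520 (17.0%) called lower, or 24.0% in either direction, by edgeR's quasi-likelihood test at an adjusted p of 0.05. No receptor was lower at an unadjusted p under 0.05 either, and 0 were called lower by limma-voom or by DESeq2. The median log2 fold change was 0.18 over the 8 receptors and -0.0031 over all genes tested. The balance of calls depended on the scaling, with 1136 genes higher and 1255 lower under upper-quartile scaling (3 receptors higher) and 5515 higher and 405 lower under scaling by library size only (6 receptors higher). The latter moved the median of all genes to 0.43, and *Ddr1*, *Fgfr1* and *Fgfr2* lay 0.41, 0.35 and 0.34 above it. Levels below are TMM-scaled CPM (scaled for composition as well as depth), a scale that takes no account of transcript length, so levels are compared between groups and not between genes. In bulk RNA, fewer cells of a type and less RNA per cell cannot be told apart.

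**Figure D1:**
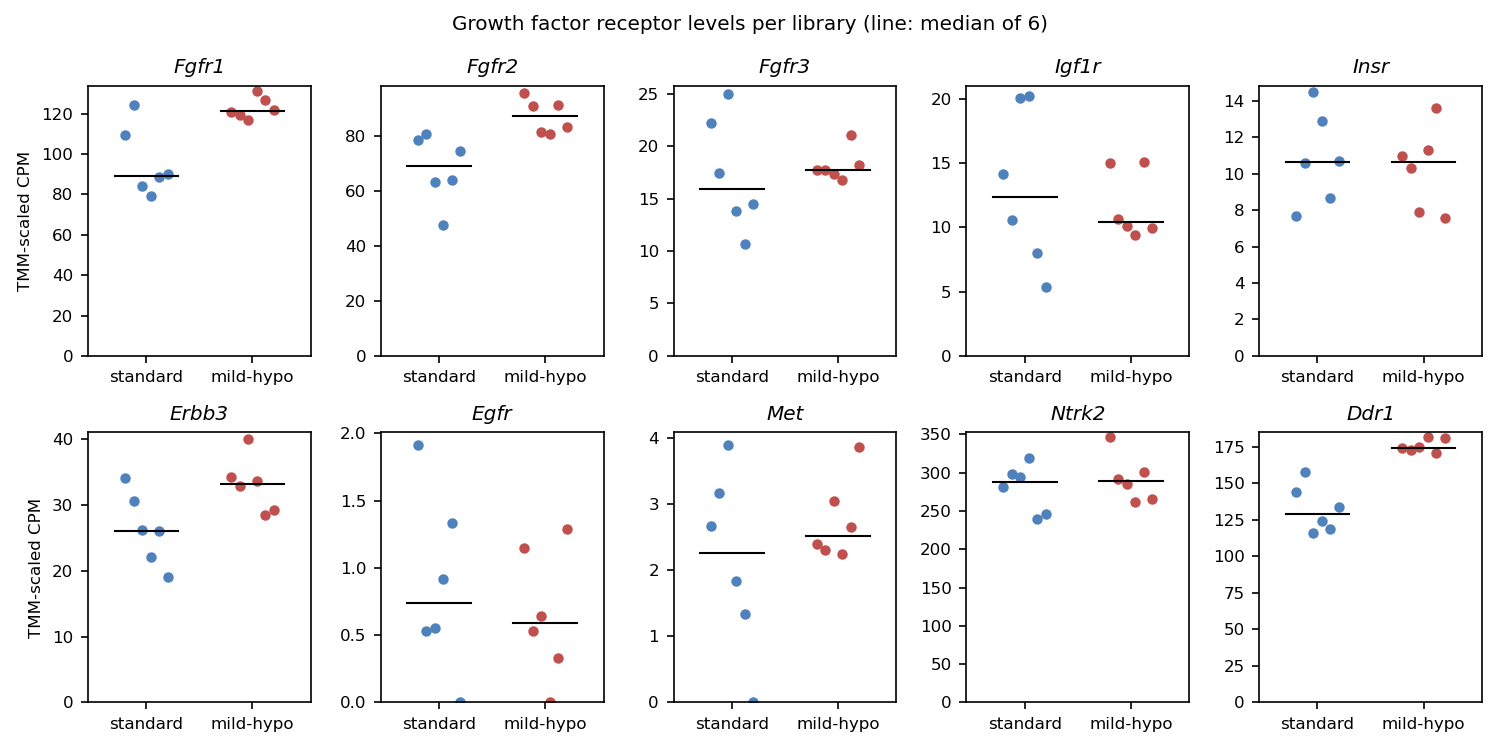
TMM-scaled CPM (vertical axes, from 0, a scale of its own for each gene) of the 10 receptors in 6 standard OPC (blue) and 6 mild-hypo-OPC (red) libraries, with a line at each group's median. All 6 mild-hypo-OPC libraries lie above all 6 standard OPC libraries for *Ddr1* and *Fgfr2*, and the groups overlap for the other 8 receptors.

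The FGF receptors were measured first, since FGF-2 was in the medium of both groups. *Fgfr1*, the receptor whose isoforms bind FGF-2 with high affinity, had 117, 121 and 131 CPM as its lowest, median and highest values in mild-hypo-OPCs, against 79.1, 89.4 and 124 CPM in standard OPCs. The 2 groups overlapped through 1 library, standard OPC replicate 2 at 124 CPM. The other 5 standard OPC libraries were below the lowest mild-hypo-OPC library. The means were 123 ± 5.17 and 95.9 ± 17.2 CPM (SD, n = 6 each). The log2 fold change was 0.34 (SE 0.10, 95% interval 0.14 to 0.54, adjusted p = 0.0142, edgeR's quasi-likelihood test), a 1.27-fold difference.

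*Fgfr2*, the FGF receptor that is known to rise with maturation of the lineage, had 80.9, 87.3 and 96.0 CPM as lowest, median and highest values in mild-hypo-OPCs, against 47.9, 69.4 and 80.8 CPM in standard OPCs. Its groups did not overlap, although the lowest mild-hypo-OPC library and the highest standard OPC library differed by less than 1 CPM. Complete separation of this kind, with all 6 mild-hypo-OPC libraries above, was found for 2.94% of the genes tested. The log2 fold change was 0.34 (SE 0.10, 95% interval 0.13 to 0.55, adjusted p = 0.0207, edgeR's quasi-likelihood test).

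*Fgfr3*, which in glia is also expressed by astrocytes, had a median of 17.7 CPM in mild-hypo-OPCs (range 16.8 to 21.1) and 16.0 CPM in standard OPCs (range 10.7 to 25.0). The mild-hypo-OPC libraries lay inside the standard OPC range, and the log2 fold change was 0.02 (95% interval -0.31 to 0.34, adjusted p = 0.952, edgeR's quasi-likelihood test). The upper end of the interval reaches the fitted changes of *Fgfr1* and *Fgfr2*.

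Within the counts of the 3 FGF receptors, the shares were close between groups. *Fgfr1* took 53.8% ± 2.06 of them in mild-hypo-OPCs, against 52.9% ± 3.07 in standard OPCs (SD, n = 6), and *Fgfr2* took 38.3% ± 1.97 and 37.6% ± 2.63. *Fgfr3* took 7.95% ± 0.517 and 9.55% ± 2.83. Each difference was smaller than the SD of the standard OPC libraries. The shares are of counts and not per length, so they compare the groups and not the genes, and no test was run on them. Each share rested on 1117 to 2248 counts in a mild-hypo-OPC library and on 153 to 550 in a standard OPC library.

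**Figure D2:**
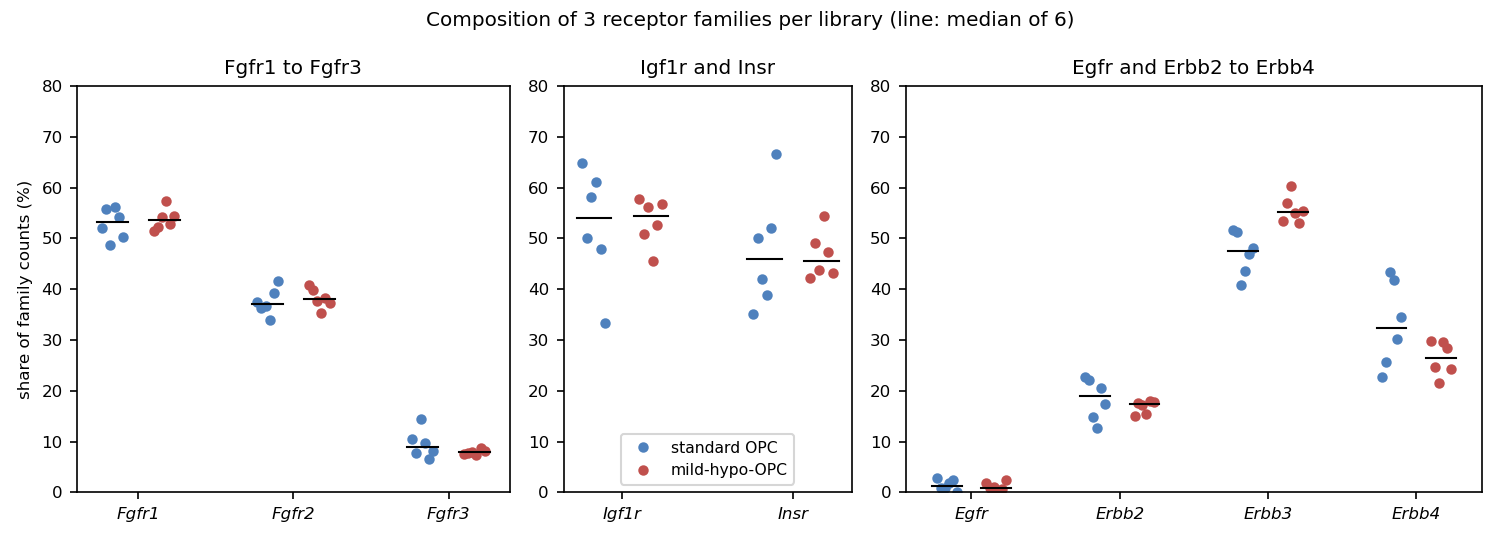
Share (%) of each receptor in the summed counts of its family in every library, for *Fgfr1* to *Fgfr3*, for *Igf1r* with *Insr*, and for *Egfr* with *Erbb2* to *Erbb4*, with lines at the group medians. The groups overlap for every receptor but *Erbb3*, whose share is 53.1% to 60.3% in mild-hypo-OPCs, against 40.9% to 51.7% in standard OPCs.

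*Ddr1* encodes a receptor for collagen, and is known as a receptor expressed by oligodendrocyte lineage cells in white matter. Its values were the most uniform of the tested receptors in mild-hypo-OPCs, with 171, 174 and 181 CPM as lowest, median and highest values, a coefficient of variation of 2.55%. Standard OPCs had 116, 129 and 157 CPM, a coefficient of variation of 12.2%. The lowest mild-hypo-OPC library was above the highest standard OPC library. The log2 fold change was 0.40 (SE 0.08, 95% interval 0.24 to 0.57, adjusted p = 0.00134, edgeR's quasi-likelihood test), a fold of 1.32 with an interval from 1.18 to 1.49. The test rested on 885 to 1667 counts of the gene in a mild-hypo-OPC library and on 135 to 376 in a standard OPC library.

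*Erbb3*, the neuregulin receptor of the list, had 28.5, 33.2 and 40.0 CPM as lowest, median and highest values in mild-hypo-OPCs, against 19.1, 26.1 and 34.0 CPM in standard OPCs. The ranges overlapped, and the log2 fold change was 0.29 (SE 0.13, 95% interval 0.02 to 0.56). It did not pass the threshold (adjusted p = 0.111, unadjusted p = 0.0369, edgeR's quasi-likelihood test). The fitted changes of its partners *Erbb2* (-0.14, adjusted p = 0.603) and *Erbb4* (-0.20, adjusted p = 0.405) did not pass it either.

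The share of *Erbb3* in the counts of *Egfr*, *Erbb2*, *Erbb3* and *Erbb4* was 55.7% ± 2.67 in mild-hypo-OPCs, against 47.1% ± 4.27 in standard OPCs (SD, n = 6), a difference of 8.57 percentage points. The 2 groups did not overlap in this share. The difference stayed between 7.32 and 9.50 points when any 1 library was left out. *Erbb4*, another neuregulin receptor, went the other way in its means, with 26.4% ± 3.34 and 33.1% ± 8.47, and its groups overlapped. Counting error was wide beside this gap, since the lowest mild-hypo-OPC library had a Wilson 95% interval of 47.6% to 58.5% (324 counts) and the highest standard OPC library one of 44.3% to 59.1% (172 counts). Such intervals cover counting error only. The share was examined without a test, and the 4 genes of the family were not shown to change differently from each other.

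*Igf1r* and *Insr*, the receptors for IGF-1 and insulin, were counted in few reads, with 46 to 144 and 41 to 105 counts in a mild-hypo-OPC library against 7 to 37 and 13 to 26 in a standard OPC library. *Igf1r* had 9.42, 10.4 and 15.1 CPM as lowest, median and highest values in mild-hypo-OPCs, against 5.34, 12.4 and 20.2 CPM in standard OPCs. *Insr* had 7.56, 10.6 and 13.6 CPM, and 7.65, 10.6 and 14.5 CPM. The groups overlapped almost fully for both receptors. The log2 fold change was -0.14 (95% interval -0.63 to 0.35, adjusted p = 0.711) for *Igf1r* and -0.04 (95% interval -0.46 to 0.38, adjusted p = 0.912) for *Insr* by edgeR's quasi-likelihood test. The interval of *Igf1r* leaves out a rise as large as the fitted change of *Ddr1* and holds a fall of that size.

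*Ntrk2*, the receptor for BDNF, had 262, 289 and 347 CPM as lowest, median and highest values in mild-hypo-OPCs, against 239, 288 and 318 CPM in standard OPCs. The medians differed by less than the spread within either group, whose SDs were 30.8 and 30.9 CPM. The log2 fold change was 0.06 (SE 0.09, 95% interval -0.12 to 0.25, adjusted p = 0.641, edgeR's quasi-likelihood test), an interval that lies below the fitted change of *Fgfr1*.

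*Egfr*, the receptor for EGF and TGF-alpha, had 11, 3, 4, 0, 2 and 7 counts in mild-hypo-OPC replicates 1 to 6 and 5, 1, 1, 1, 2 and 0 counts in standard OPC replicates 1 to 6. *Met*, the receptor for hepatocyte growth factor, had 23, 13, 19, 11, 16 and 21 counts and 7, 6, 7, 2, 2 and 0 counts. Summed over the group, *Egfr* had 27 and 10 counts and *Met* 103 and 24, and the mild-hypo-OPC libraries also held more counts in all. With every gene kept in the fit, the log2 fold change was -0.42 (95% interval -1.71 to 0.87, adjusted p = 0.696) for *Egfr* and 0.26 (95% interval -0.50 to 1.03, adjusted p = 0.674) for *Met* by edgeR's quasi-likelihood test. A count of 0, read as up to 3 counts, allows up to 0.615 TMM-scaled CPM in mild-hypo-OPC replicate 4 and up to 2.29 in standard OPC replicate 6. Changes inside these intervals could not be told from none.

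Promoter sequence was available here for 7 of the 10 receptors (RefSeq, GRCr8), as the 250 bases before the annotated start, in 8 windows since *Ddr1* has 2 starts. No window was available for *Fgfr1*, *Erbb3* and *Ntrk2*. ACGTG, the core of the hypoxia response element, or its reverse complement CACGT was found in 2 of the 8 windows, those of *Igf1r* and *Egfr*, and in 16.57% of 33469 promoter windows. GGGCGG or its reverse complement CCGCCC, the GC box, was found in 5 of the 8, among them 1 of the 2 of *Ddr1*, and in 30.47% of all windows. The windows of *Fgfr2*, a receptor called higher that holds no ACGTG, and of *Igf1r* are shown with the matches to ACGTG and to the GC box in capitals. Among the tested receptors that had a window, *Igf1r* was the only 1 to hold ACGTG. *Fgfr2* lies at chr1:194280915-194281164 on the minus strand and *Igf1r* at chr1:130959747-130959996 on the plus strand, and both are written 5′ to 3′ toward the gene.
Fgfr2: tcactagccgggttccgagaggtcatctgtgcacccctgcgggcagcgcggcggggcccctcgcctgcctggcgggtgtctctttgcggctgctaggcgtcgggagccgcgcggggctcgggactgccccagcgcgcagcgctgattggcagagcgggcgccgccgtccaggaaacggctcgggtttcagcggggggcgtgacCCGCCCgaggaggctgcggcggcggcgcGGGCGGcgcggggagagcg
Igf1r: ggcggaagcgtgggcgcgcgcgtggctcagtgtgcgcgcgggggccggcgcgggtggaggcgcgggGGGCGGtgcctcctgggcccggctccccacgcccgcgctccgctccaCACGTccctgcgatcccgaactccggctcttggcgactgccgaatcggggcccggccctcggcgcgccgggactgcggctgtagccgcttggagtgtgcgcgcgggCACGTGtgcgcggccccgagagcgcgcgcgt
The *Igf1r* window holds 3 matches to ACGTG on either strand, of which 2 overlap as a palindrome, CACGTG, that is also an E-box. Letters alone show no binding, and a window without them says nothing about the factor.

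The wider family was given by 47 other receptor tyrosine kinases, all in the table, of which 17 were tested. Of these, 4 (23.5%) were called higher, against 7.00% of all genes tested, and 0 lower, against 17.0% (0 also at an unadjusted p under 0.05, and by limma-voom and DESeq2), and their median log2 fold change was 0.08. *Pdgfra*, the receptor for the PDGF-AA in the medium and a defining OPC marker, had 204, 230.5 and 270.0 CPM as lowest, median and highest values in mild-hypo-OPCs, against 199, 213 and 285 CPM in standard OPCs. Its log2 fold change was 0.05 (SE 0.10, 95% interval -0.16 to 0.25, adjusted p = 0.765, edgeR's quasi-likelihood test). The FGF receptors of the list had fitted values of 0.34 (*Fgfr1*), 0.34 (*Fgfr2*) and 0.02 (*Fgfr3*), and their differences from *Pdgfra* were not tested.

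*Ephb1*, a receptor for ephrin-B ligands, had 69.5 to 89.9 CPM in mild-hypo-OPCs, against 41.3 to 69.2 CPM in standard OPCs, with no overlap (log2 fold change 0.47, SE 0.11, adjusted p = 0.00416, edgeR's quasi-likelihood test). *Tyro3*, a TAM receptor for GAS6 and protein S that is known in myelination, rose by 0.49 (SE 0.12, adjusted p = 0.00723), with 38.5 to 47.9 CPM and 19.3 to 39.3 CPM. *Aatk*, a lemur-family kinase of the nervous system, rose by 0.31 (SE 0.09, adjusted p = 0.0181). *Csf1r*, the receptor that microglia depend on, had 14.1, 17.7 and 21.8 CPM in mild-hypo-OPCs, against 6.44, 11.3 and 15.6 CPM in standard OPCs. It rose by 0.61 (SE 0.19, adjusted p = 0.0231, edgeR's quasi-likelihood test), and missed the threshold when standard OPC replicate 4, 5 or 6 was left out. *Insrr*, *Mst1r*, *Tek*, *Ros1* and *Epha1* had no count in any library. *Pdgfrb*, a mural cell receptor below the filter, had 2 to 6 counts in each mild-hypo-OPC library and 0 in every standard OPC library, and was called higher with every gene kept (adjusted p = 0.0312, edgeR's quasi-likelihood test). Its level in mild-hypo-OPCs was 0.32 to 0.82 CPM. A 0 in a standard OPC library, read as up to 3 counts, allows up to 1.15 to 2.76 TMM-scaled CPM, so no single such library excludes that level.

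**Figure D3:**
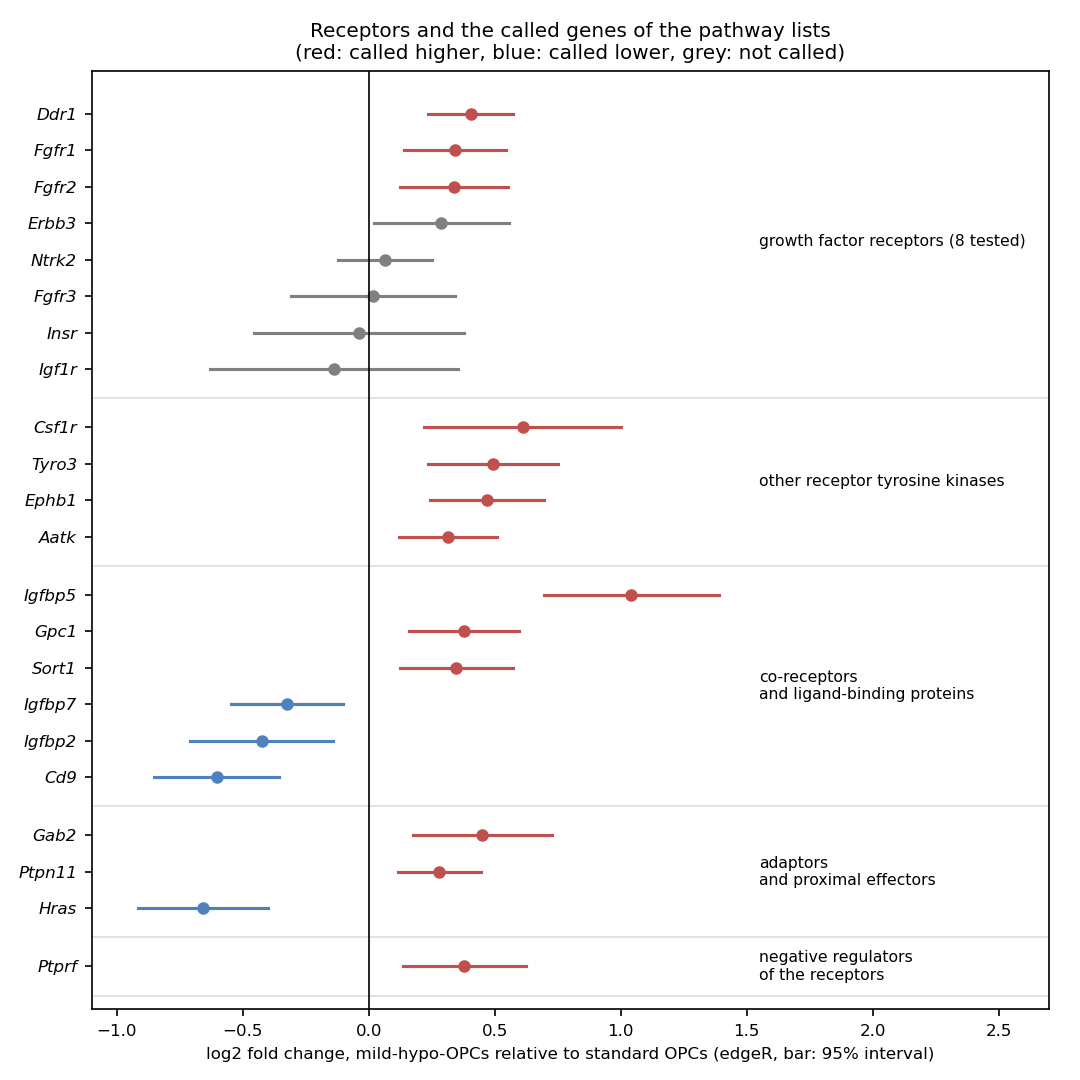
Log2 fold change of mild-hypo-OPCs relative to standard OPCs (horizontal axis, edgeR, bars are 95% intervals) for the 8 tested receptors and for the called genes of 4 related lists. Called genes are red (higher) or blue (lower) and the 5 receptors that were not called are grey; *Igfbp5* lies farthest right at 1.04 and *Hras* farthest left at -0.66.

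The ligands of the 10 receptors were mostly near the floor. Of 36 ligand genes, 6 were tested, 0 were called in either direction by edgeR, limma-voom or DESeq2 (1 higher and 0 lower at an unadjusted p under 0.05), against 24.0% of all genes tested, and 11 had no count in any library, among them *Fgf8*, *Ins1*, *Ins2* and *Ntf3*. The count of 0 higher became 1 without mild-hypo-OPC replicate 6 and 5 with scaling by library size only, which raised the median of all genes. *Nrg3*, a neuregulin below the filter, had 4.79, 5.14 and 6.26 CPM as lowest, median and highest values in mild-hypo-OPCs, against 6.87, 7.70 and 11.7 CPM in standard OPCs, without overlap, and was called lower with every gene kept (-0.66, adjusted p = 0.0319) and with edgeR's own filter (-0.70, adjusted p = 0.0116). *Tgfa*, a ligand of the barely counted *Egfr*, took the most counts of the list, on a scale that is not per length, with 303 ± 17.7 CPM in mild-hypo-OPCs, against 301 ± 33.7 CPM in standard OPCs (SD, n = 6). *Igf1* (-0.10, adjusted p = 0.736) and *Igf2* (0.01, adjusted p = 0.968) were not called by edgeR. Among the collagens that bind DDR1, *Col4a1* (0.11, adjusted p = 0.523) and *Col4a2* (0.42, adjusted p = 0.113) were tested and not called.

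Among 26 co-receptors and ligand-binding proteins, 14 were tested, 3 were higher and 3 were lower, counts that ran from 2 to 5 and from 1 to 4 when 1 library was left out. Both shares were 21.4%, against 7.00% of all genes tested called higher and 17.0% called lower. *Igfbp5*, a secreted protein that binds IGFs, had 20.7, 24.9 and 30.7 CPM as lowest, median and highest values in mild-hypo-OPCs, against 8.34, 10.7 and 17.6 CPM in standard OPCs. The groups did not overlap, and the log2 fold change of 1.04 (SE 0.17, adjusted p = 0.000274, edgeR's quasi-likelihood test) was the largest among the called genes of the pathway lists. *Gpc1*, a heparan sulfate proteoglycan that binds FGFs, rose by 0.38 (SE 0.11, adjusted p = 0.013). *Sort1*, a receptor that binds proneurotrophins and BDNF, rose by 0.35 (SE 0.11, adjusted p = 0.0234, edgeR's quasi-likelihood test). Its groups barely separated, with 81.87 CPM in the lowest mild-hypo-OPC library and 81.82 CPM in the highest standard OPC library. *Sort1* missed the threshold when standard OPC replicate 3 or 5 was left out. Its call was also lost in the first random thinning of every library to the smallest total, the only draw examined for it (0.31, adjusted p = 0.0612, edgeR's quasi-likelihood test). The call was lost as well with the trend on gene span removed (0.29, adjusted p = 0.051, limma-trend). *Ngfr*, the p75 neurotrophin receptor, was below the filter and was called higher with every gene kept (0.98, adjusted p = 0.028), with 24 to 50 counts in a mild-hypo-OPC library and 2 to 11 in a standard OPC library.

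*Cd9*, a tetraspanin that binds membrane-anchored HB-EGF, had 330.2, 413 and 478 CPM in mild-hypo-OPCs, against 480.2, 643 and 769.8 CPM in standard OPCs, again with no overlap, which 5.40% of genes tested showed in this direction. It fell by 0.60 (log2 fold change -0.60, SE 0.12, adjusted p = 0.00122, edgeR's quasi-likelihood test), and with scaling by library size only it was not called (-0.16, adjusted p = 0.269) but stood at -0.59 relative to the median of all genes, which that scaling raised. *Igfbp2* (-0.42, adjusted p = 0.0282) and *Igfbp7* (-0.32, adjusted p = 0.0317), both of which bind IGFs or insulin, were lower, but with scaling by library size only their fitted values were 0.015 and 0.11, or -0.41 and -0.32 relative to the median of all genes, and neither was called. *Igfbp2* was also not called by limma-voom (adjusted p = 0.0504), nor in 9 of 12 fits that left out 1 library, and *Igfbp7* not in 7 of 12. *Igfbp3*, also an IGF-binding protein, was tested and not called (-0.17, adjusted p = 0.437).

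Of 39 adaptors and proximal effectors, 37 were in the table and 30 were tested, with 2 (6.67%) higher and 1 (3.33%) lower, against 7.00% and 17.0% of all genes tested, and a median log2 fold change of 0.08. The share called higher was near that of all genes. When 1 library was left out, 2 were called higher in every fit and 1 to 2 lower. *Ptpn11*, the phosphatase SHP2 that carries signals from FGF receptors to RAS, had 245 to 279 CPM in mild-hypo-OPCs, against 187 to 248 CPM in standard OPCs and rose by 0.28 (SE 0.08, adjusted p = 0.0143, edgeR's quasi-likelihood test). *Gab2*, a docking protein that recruits SHP2, had 36.4, 38.1 and 48.5 CPM and 16.8, 31.0 and 34.3 CPM. It rose by 0.45 (SE 0.13, adjusted p = 0.0177) with no overlap. *Gab2* was not called in the first random thinning of every library to the smallest total (0.40, adjusted p = 0.0938, edgeR's quasi-likelihood test). Further draws were not examined for it. *Hras*, a RAS GTPase, fell, with a log2 fold change of -0.66 (SE 0.12, adjusted p = 0.000802), and was not called with scaling by library size only (-0.22, adjusted p = 0.123, or -0.65 relative to the median of all genes). *Frs2*, the docking protein of FGF receptors (0.02, adjusted p = 0.93), and *Irs1* (0.08, adjusted p = 0.67) and *Irs2* (0.01, adjusted p = 0.971), those of the insulin and IGF-1 receptors, were not called.

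Of 35 negative regulators, 29 were tested, and 1 (3.45%) was called higher, against 7.00% of all genes tested, and 0 lower, against 17.0%. At an unadjusted p under 0.05, 5 were higher and 2 lower by edgeR's quasi-likelihood test, and 0 were called lower by limma-voom and DESeq2. The count of higher calls ran from 0, without standard OPC replicate 3, 4 or 6, to 4, without standard OPC replicate 1. *Ptprf*, the receptor phosphatase LAR, had 65.2 to 86.8 CPM in mild-hypo-OPCs, against 45.6 to 79.2 CPM in standard OPCs. It rose by 0.38 (SE 0.12, adjusted p = 0.0235, edgeR's quasi-likelihood test), and missed the threshold when standard OPC replicate 3, 4 or 6 was left out. The Sprouty genes, feedback inhibitors that are known to be induced by FGF signaling, were not called, with log2 fold changes of -0.18 for *Spry1*, -0.03 for *Spry2*, 0.23 for *Spry3* and 0.10 for *Spry4*. *Dusp6*, an ERK phosphatase of the same kind of feedback, was at 0.11 (adjusted p = 0.494).

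Markers of the cell types that the cultures could hold were read beside these values. The OPC markers *Olig2* (0.08, adjusted p = 0.403), *Sox10* (0.23, adjusted p = 0.091) and *Cspg4* (0.22, adjusted p = 0.306) were present in both groups and not called by edgeR's quasi-likelihood test. Of 7 tested OPC markers, 1 (14.3%) was higher, against 7.00% of all genes tested, and 0 lower, against 17.0%. The marker called was *Nkx2-2* (0.20, adjusted p = 0.0486, the same test). That call held in 4 of 12 fits that left out 1 library and in 10 of 25 alternatives. Of 8 oligodendrocyte markers, all tested, 5 (62.5%) were higher and 0 lower, against 7.00% and 17.0% of all genes tested, led by *Cldn11* (0.54, adjusted p = 0.00155) and *Mag* (0.47, adjusted p = 0.00295), both of myelin. Summed over the list, the lowest mild-hypo-OPC library (12938 CPM) was above the highest standard OPC library (12754 CPM). The microglia and neuron lists below separated the groups in the same way. Whether these markers and the receptors moved through the same cells was not tested.

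Of 10 microglia markers, 4 were tested and 3 were higher, where 7.00% of all genes tested were higher and 17.0% lower, shares that the astrocyte and neuron counts also stand against, with *Csf1r* taking the most counts of the list (not per length), *Cd68* at 0.67 (adjusted p = 0.0251) and *C1qb* at 0.76 (adjusted p = 0.0355). Leaving out 1 library lost the call of *Cd68* in 2 of 12 fits (standard OPC replicates 3 and 5) and that of *C1qb* in 6 of 12 (mild-hypo-OPC replicates 2 and 3 and standard OPC replicates 1, 3, 4 and 6). Their summed level was 56.1 to 78.9 CPM in mild-hypo-OPCs, against 29.4 to 56.0 CPM in standard OPCs, with no overlap by a margin under 1 CPM. Their part in the *Csf1r* result was not tested. Astrocyte markers, which bear on *Fgfr3*, had a summed median of 906 CPM and 866 CPM, with the most counts in *Gfap* (380 and 351 CPM), and of 8 tested 2 were higher and 1 lower. Of 9 neuron markers, 7 were tested and 1, *Tubb3*, was higher, while all 7 had a fitted value above 0 (median 0.29). Their summed level was 388 to 462 CPM in mild-hypo-OPCs, against 299 to 373 CPM in standard OPCs, without overlap, with the most counts in *Map2*. None of the 8 mesenchymal and mural markers (summed medians of 2.07 and 1.60 CPM) and none of the endothelial markers passed the filter, and the endothelial genes *Cdh5* and *Tek* were at 0 in every library.

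The 3 receptor calls were kept in each of the 12 fits that left out 1 library. *Ddr1* ranged from 0.37 to 0.46 in them, *Fgfr1* from 0.30 to 0.43 and *Fgfr2* from 0.27 to 0.39, with a highest adjusted p of 0.00456, 0.0401 and 0.04997. *Erbb3* was called in 1 of the 12, without standard OPC replicate 1 (adjusted p = 0.0329). When every library was thinned at random to the smallest total, *Ddr1* was called higher in 20 of 20 draws, *Fgfr1* and *Fgfr2* each in 17 and *Erbb3* in 1. The calls were absent in replicates 1 to 3 taken alone, where *Ddr1* was 0.34 (adjusted p = 0.122), *Fgfr2* 0.28 (adjusted p = 0.204) and *Fgfr1* 0.18 (adjusted p = 0.446), and present in replicates 4 to 6 alone, at 0.51, 0.45 and 0.56. When log2 total count was added as a covariate, no receptor was called, and *Ddr1* was 0.30 (adjusted p = 0.704), *Fgfr1* 0.15 (adjusted p = 0.939) and *Fgfr2* -0.05 (adjusted p = 0.993). Of the 14 called genes of the related lists, *Igfbp5* alone was called in replicates 1 to 3 (0.95, adjusted p = 0.027), and none was called with the total count in the fit.

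**Figure D4:**
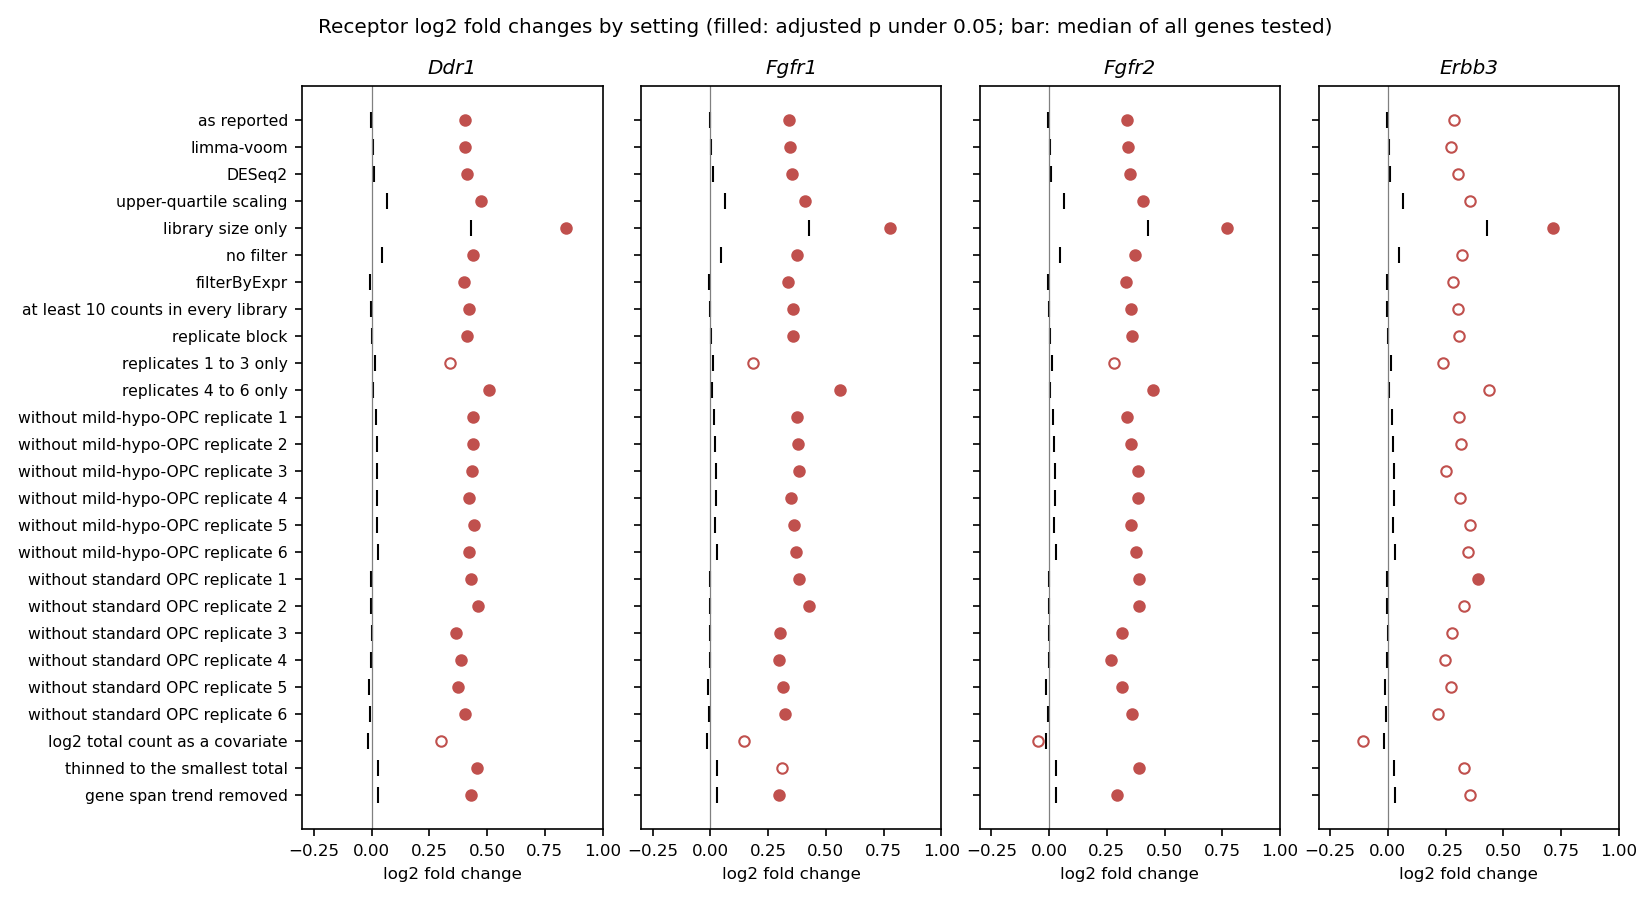
Log2 fold change (horizontal axes) of *Ddr1*, *Fgfr1*, *Fgfr2* and *Erbb3* as reported and under 25 other settings (rows), with filled points for an adjusted p under 0.05 and a bar at the median of all genes tested. Points of *Ddr1*, *Fgfr1* and *Fgfr2* are open in replicates 1 to 3 and with the total count in the fit, that of *Fgfr1* is also open in the thinning draw shown, and scaling by library size only shifts points and bars together, the bars to 0.43.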

How the data were processed

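The authors trimmed reads with Trimmomatic 0.36, aligned them with STAR 2.7.9a to mRatBN7.2 and estimated genes with RSEM 1.3.3, and deposited whole-number counts for 30562 Ensembl genes in 12 libraries, without normalization. How the estimates were made whole, and whether strand was used in counting, is not given in the sources used here. Columns of the table left unused numbered 0. Groups came from the labels.

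The 8938 genes whose CPM passed 10 in 1 library or more were scaled by TMM factors and fitted with condition as the only term by glmQLFit and glmQLFTest (edgeR 4.0.16, R 4.3.3), with Benjamini-Hochberg adjustment over all genes kept and a threshold of 0.05. The interval and SE of a log2 fold change are those implied by the F statistic. limma-voom (limma 3.58.1, the study's test), DESeq2 1.42.0, other scalings and filters, a block for the replicate number, the first or last 3 replicates of each group, log2 total count, thinning, gene span and leaving out each library were alternatives, and 20 draws of the thinning were added after seeing the data. The script was tested on simulated counts. Counts of libraries of a group differed beyond sampling noise in all 15 pairs of each group (chi-square over its degrees of freedom of 3.22 or more).

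The receptors, the 5 related lists and the marker lists were chosen with earlier results of these data known. Named genes were the 10 receptors and the called genes of the related lists, and other list members were picked as examples with their values known. Figures were drawn with matplotlib 3.10.9.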

Additional observations from a re-analysis of the deposited data

Results flagged for a closer look

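Among 24 genes in 2 groups of 6 libraries each, Dixon's criterion (critical value 0.625), which chance alone passes in about 1 of 20 groups, picked out 3 of 48 groups. *Fgfr3* had 21.1 CPM in mild-hypo-OPC replicate 5 while the other 5 libraries of that group had 16.8 to 18.3 CPM (gap over range 0.660). *Igfbp2* had 73.2 CPM in mild-hypo-OPC replicate 6 and 51.1 to 56.5 CPM in the others (0.754). *Gab2* had 48.5 CPM in mild-hypo-OPC replicate 1 and 36.4 to 40.3 CPM in the others (0.677).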

How the results depend on the processing

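The groups differed in depth without overlap, and the receptor calls were absent in replicates 1 to 3 alone. With upper-quartile scaling 1136 genes were called higher. With scaling by library size only, which moved the median of all genes to 0.43 on the log2 scale, 5515 were higher and 405 lower, 6 receptors were called higher (*Fgfr3* at 0.45, *Erbb3* at 0.72 and *Ntrk2* at 0.50 were added), and *Igf1r* and *Insr* were 0.29 and 0.39. In replicates 1 to 3 alone, 53 genes were higher and 343 lower, 0 receptors were called, and *Fgfr3* was -0.27; in replicates 4 to 6 *Igf1r* was 0.131 and *Insr* 0.0451. With log2 total count as a covariate 0 genes were higher (217 at an unadjusted p under 0.05 in edgeR), 43 were lower, 0 receptors were called, and *Fgfr2* was -0.048, *Fgfr3* -0.32, *Insr* 0.032, *Erbb3* -0.11 and *Ntrk2* -0.25. Thinning all libraries to the smallest total left 364 to 534 genes higher and 1045 to 1202 lower over 20 draws, added after seeing the data; the highest adjusted p in a draw was 0.0127 for *Ddr1*, 0.0910 for *Fgfr1* and 0.134 for *Fgfr2*, and *Igf1r* was 0.0066 in the first draw (-0.17 as the median of 20). *Insr* was 0.028 with upper-quartile scaling. The causes of these changes were not tested. Leaving out 1 library gave 436 to 823 genes higher, 1165 to 1664 lower and 3 to 4 receptors higher, and ranges of -0.087 to 0.14 for *Fgfr3*, -0.27 to 0.034 for *Igf1r* and -0.16 to 0.080 for *Insr*. limma-voom, DESeq2, the 3 other filters and removal of the trend on gene span kept the 3 receptor calls; *Igf1r* was not kept with at least 10 counts in every library.

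Replicate numbers are shared by the groups, but same-numbered libraries did not deviate together (correlations from -0.276 to 0.296, with 1 of 6 mild-hypo-OPC libraries closest to its own number), so the numbers were not used as pairs. The fit with the replicate block gave 572 genes higher and 1471 lower, and 3 receptors higher (*Ddr1* 0.41, *Fgfr1* 0.36, *Fgfr2* 0.36), and changed no receptor's call. *Igfbp7* (adjusted p = 0.0507) and *Nkx2-2* (0.082) missed the threshold under the block.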
